A study of Drosophila melanogaster with 3 samples.

Results

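Among the genes whose introns left stable RNA in the unfertilized egg of Drosophila melanogaster, 3 encode proteins of the cytosolic ribosome: RpS27, RpL35A and RpS15Aa. They were found by symbol in the 2 deposited lists of stable intronic sequence RNAs (sisRNAs, RNAs made from introns that persist after splicing), and they are 3 of the 295 host genes of the longer list and 3 of the 140 hosts of the counted list. The eggs came from y w flies, and 3 libraries of 1 sample each were made: the polyA-plus fraction and the polyA-minus fraction of rRNA-depleted total RNA, and that total RNA itself. The genes were chosen by name with their read counts already known, so the counts are a description and were not tested. The read counts stand in a single column that names no library, so no value can be tied to a fraction and none has a replicate. The lists hold intronic RNAs only, so the egg could not be checked against marker genes.

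A ribosome is built from a small and a large subunit, each made of ribosomal RNA and many different proteins, and every growing cell makes these proteins in near equal amounts from genes spread over the genome. In Drosophila, loss of a single copy of many of these genes gives the Minute phenotype of slow development and thin bristles. The mother supplies the egg with ribosomes before it is laid. The introns of ribosomal protein genes are also known as places from which small nucleolar RNAs (snoRNAs), which guide the modification of ribosomal RNA, are cut out. A sisRNA is another kind of product from the same kind of place.

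The lists give each host the hexamers of the poly(A) signal that were found for it, a motif that directs cleavage and polyadenylation of RNA. They are shown because they are the only sequence that the files hold for these RNAs, and they differ between all 3 hosts. No part of them is in capitals.
RpS27: aauaaa
RpL35A: auaaaa
RpS15Aa has no hexamer in either list. The entries were identical in both lists for each of the 3 genes. As a setting, 27.1% of the 295 listed genes had aauaaa alone (80 genes, exact 95% interval 22.1% to 32.6%) and 11.2% had auaaaa alone (33 genes, 7.83% to 15.4%). No hexamer was listed for 74 genes, 25.1% of the list. The sequence that was searched is not given, so whether these motifs lie in the sisRNA and act there is unknown.

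RpL35A, a protein of the large subunit whose human counterpart is one of the genes mutated in Diamond-Blackfan anaemia, carried by far the most reads of the 3. Its sisRNA had 638 reads (exact Poisson 95% interval 589 to 689), the second highest count of the list. RpS27, a zinc-binding protein of the small subunit, had 69 reads (53.7 to 87.3) and ranked 49. RpS15Aa, also of the small subunit, had 59 reads (44.9 to 76.1) and ranked 59. The other 137 entries ran from 8 to 869 reads with a median of 48 and quartiles of 25 and 88. RpL35A thus lay far above the upper quartile, while both small-subunit hosts lay inside the middle range of the list. All intervals cover counting error only, and sequenced reads that carry no molecular identifier can stem from the same molecule.

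**Figure D1:**
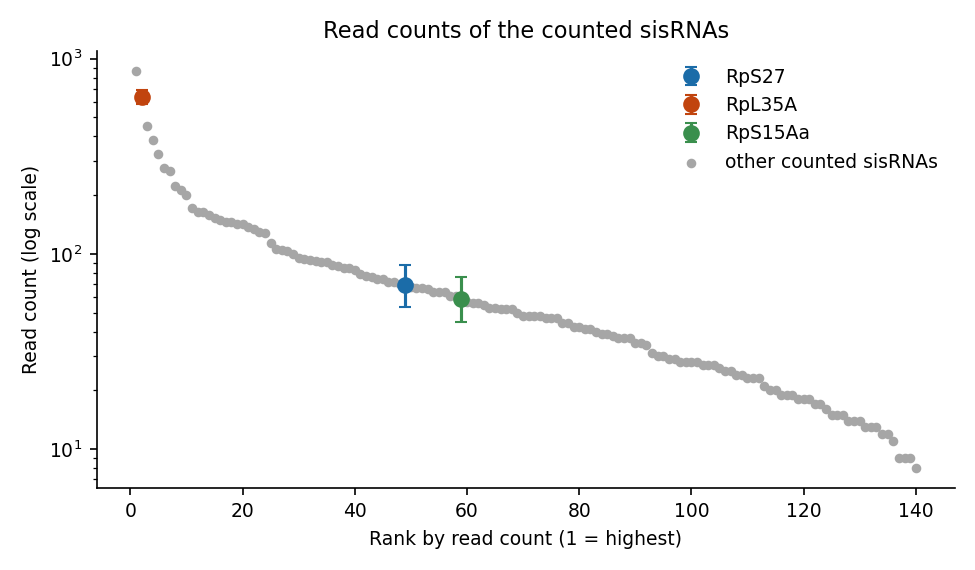
Read count of each of the 140 counted sisRNAs (vertical axis, log scale) against its rank (horizontal axis), with the 3 ribosomal protein hosts in colour and exact Poisson 95% intervals as bars. RpL35A stands second with 638 reads, while RpS27 with 69 and RpS15Aa with 59 lie in the dense middle of the curve.

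The RpL35A sisRNA had 9.25 times as many reads as that of RpS27 (conditional exact 95% interval 7.20 to 12.0) and 10.8 times as many as that of RpS15Aa (8.27 to 14.4). The ratio of RpS27 to RpS15Aa was 1.17, with an interval of 0.814 to 1.68 that includes 1. These intervals describe the counting error of the 3 values and are not tests. Lengths of the sisRNAs are not listed, so these are differences in reads and not in molecules.

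All 3 hosts of the longer list had a read count, as did 46.4% of the list, and 1 of the 3, RpL35A, had at least 100 reads, against 20.7% of the counted list. With so few genes neither share says anything about ribosomal protein hosts as a class. Together the 3 sisRNAs held 766 of the 11169 listed reads (6.86%, exact 95% interval 6.40% to 7.34%). RpL35A alone accounted for 5.71% of listed reads (5.29% to 6.16%), RpS27 for 0.618% (0.481% to 0.781%) and RpS15Aa for 0.528% (0.402% to 0.681%). The combined share is thus mostly that of RpL35A. The sum is over the list and is not the depth of a library, which is unknown.

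Relative to the median of the other 139 entries, which was 48 reads in each case, RpL35A was 13.3 times higher, a log2 ratio of 3.73 (3.62 to 3.84). The ratio was 1.44 for RpS27, a log2 value of 0.52 (0.16 to 0.86), but 0.20 (-0.16 to 0.54) when entries under 20 reads were left out and 0.30 (-0.06 to 0.64) among entries with the same hexamer. For RpS15Aa it was 1.23, a log2 value of 0.30 whose interval of -0.10 to 0.66 includes 0. Its log2 ratio was 0.42 (0.03 to 0.79) against the entries of its own arm and 0.75 (0.36 to 1.12) against those with no hexamer, where the intervals lie above 0, and -0.05 (-0.44 to 0.32) when entries under 20 reads were left out. These intervals carry the counting error of the host and not the spread of the list.

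The entries next to RpL35A in the ranking were clear of it. The one above, CG11008 on 3L with 869 reads (812 to 929), exceeded it, with a ratio of RpL35A to CG11008 of 0.734 (0.662 to 0.814). The one below, wal, had 454 reads (413 to 498), and RpL35A had 1.41 times as many (1.24 to 1.59). The neighbours of the small-subunit hosts differed from them by less than counting error. RpS27 stood between CG14438 with 70 reads and alph with 68. RpS15Aa stood between CG4615 and l(1)G0196 with 61 reads each and the kinase gene polo with 57.

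By position, RpL35A (FBgn0037328) and RpS27 (FBgn0039300) are both on arm 3R, and RpS15Aa (FBgn0010198) is on X. The authors place the centres of the sisRNAs at 3R:1292470 for RpL35A, 3R:21072921 for RpS27 and X:13231028 for RpS15Aa, in dm3. The 3R centres are 19.8 Mb apart, so the hosts on that arm are not neighbours. RpL35A is close to the centromere in the gene order of the BDGP6 annotation, with 146 of the 3421 protein-coding genes of 3R (4.27%) nearer to it. RpS27 has 77.7% of the genes of 3R between it and the centromere, and RpS15Aa has 42.2% of the 2196 genes of X. The 3 hosts are thus spread along their arms.

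RpL35A was the highest of the 37 counted sisRNAs on 3R. The other 36 had a median of 42.5 reads and a highest value of 142, so no entry of its arm came near it. RpS27 ranked 10 on the same arm. RpS15Aa ranked 19 of 42 on X, where the other 41 had a median of 44 reads and a highest value of 212.

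Sorted by hexamer, RpL35A again stood first, while the places of the small-subunit hosts depended on the entries they were set against. RpS27 and RpS15Aa differ in arm and in hexamer class, so these percents do not order them against each other. The percent of other entries below was 60.9% for RpS27 and 67.4% for RpS15Aa, against 75% and 56.1% on their arms. RpL35A was the highest of the 13 counted entries with auaaaa alone, of which the other 12 had a median of 62.5 reads and a highest value of 163. RpS27 ranked 10 of the 24 entries with aauaaa alone, where the median of the others was 56. RpS15Aa ranked 15 of the 44 entries with no hexamer, where the median of the others was 35. Its count was 1.69 times that median.

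Likeness was measured as the smallest log2 difference in read count among entries with the same arm and the same hexamers. For RpS15Aa, 13 such entries exist, and the closest were l(1)G0196 with 61 reads, Atg5 with 48 and CG7033 with 41. For RpS27, 6 exist, and the closest were Katanin-60 with 56 reads, rga with 53 and CG9795 with 106. RpL35A had only CG12054 with 64 reads and MtnA with 14, with log2 ratios of -3.32 and -5.51 to RpL35A. The highest other count on 3R was 142 reads, so no entry of its arm and hexamer could be close to it.

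The centre of the RpL35A sisRNA lies 4748 bases from that of snr1, which encodes a subunit of the Brahma chromatin remodelling complex and whose sisRNA had 31 reads (21.1 to 44.0). Another counted centre lies within 5000 bases for 8 of the 140 entries (5.71%), RpL35A and snr1 included. That limit was not planned and lies just above the distance of RpL35A, so the share is only a description. The 31 reads of snr1 lie between the quartiles of the list, 25 and 88, while the 638 of RpL35A lie far above them. Any link between position and read count was not tested. The nearest counted centre was 148 kb away for RpS27 (CG33096, 12 reads) and 211 kb away for RpS15Aa (CG32638, 91 reads). The median over all entries was 249 kb, but it was 133 kb for the 37 entries of 3R and 163 kb for the 42 of X. RpS27 and RpS15Aa thus lay farther from their nearest neighbour than the median entry of their own arm.

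The gene structures were taken from the BDGP6 annotation by symbol. It is another build than dm3, so the centres could not be placed in an intron through it. All 3 genes are small for hosts of the counted list. The gene length was 1560 bases for RpS27, 1472 for RpL35A and 2069 for RpS15Aa, against a median of 5512 bases for the 136 other counted hosts that matched the annotation. Of those 136, only 10 were shorter than RpS27, 7 shorter than RpL35A and 19 shorter than RpS15Aa. RpS27 has 2 distinct introns, and 10 of the 136 have fewer. RpL35A and RpS15Aa have 4 distinct introns each, counted over all transcripts. Of the 136, 40 have fewer, so this number is below the median of 6 but not unusual. The RpS15Aa introns of 71, 67 and 63 bases end at the same base and occur in 1 transcript each. They are thus variants of a single intron, and the distinct count of RpS15Aa exceeds the number of introns in a transcript. None of these sizes was used to choose the genes by name.

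A single intron makes up much of each gene. The longest intron had 765 bases in RpS27 (49.0% of the gene), 598 in RpL35A (40.6%) and 1125 in RpS15Aa (54.4%). The remaining introns were short, the shortest having 66 bases in RpS27, 60 in RpL35A and 63 in RpS15Aa. Set against the other counted hosts, whose median longest intron was 1093 bases, the longest introns of the 3 genes were not unusual. They exceeded those of 36.2% (RpS27), 29.0% (RpL35A) and 51.4% (RpS15Aa) of the other 138 hosts.

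In each of the 3 genes this long intron sits next to the start codon. In RpS27 it is the first intron and follows the first 6 coding bases. In RpL35A it is intron 2, in the 5′ untranslated region, and 7 exonic bases separate it from the start codon. In RpS15Aa it is also in the 5′ untranslated region, with 2 exonic bases before the start codon. A longest intron within 10 exonic bases of the start codon was found in 3 of 3 of these hosts, in 12 of the 139 counted hosts (8.63%, the 3 included) and in 742 of 11740 intron-bearing protein-coding genes (6.32%). It is common in ribosomal protein genes that are not listed, 28 of 79 (35.4%). The limit of 10 bases was set after the structures were seen, so no test was made.

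**Figure D2:**
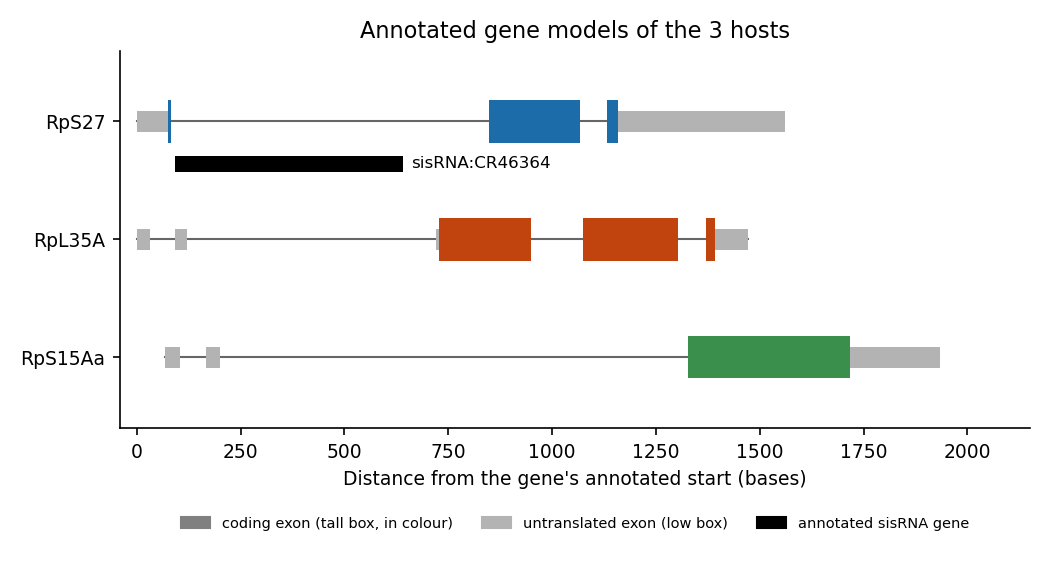
Gene models of RpS27, RpL35A and RpS15Aa (1 annotated transcript each, RA) drawn to scale as distance in bases from the gene's start, with coding exons as tall coloured boxes, untranslated exons as low grey boxes and introns as lines. Each gene has a single long intron beside the start of the coding sequence, and that of RpS27 holds the annotated sisRNA gene sisRNA:CR46364 (black).

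RpS27 is the only one of the 3 hosts in which the annotation itself carries a sisRNA gene. This gene, sisRNA:CR46364, has 549 bases on the strand of RpS27 and lies inside the intron of 765 bases, of which it covers 71.8%. It begins 10 bases after the start of the intron and ends 206 bases before its end, so its annotated span reaches neither splice site. The annotation holds 10 sisRNA genes in all, none of which reaches an end of its intron. With 549 bases sisRNA:CR46364 is the longest, the next having 534 and the shortest 172. Whether the entry with 69 reads is the same RNA was not shown, since the builds differ.

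The 10 annotated sisRNA genes lie in introns of 9 host genes, of which 5 are in the longer list and 4 have a read count. RpS27 had 69 reads (53.7 to 87.3), Csp, a synaptic vesicle chaperone and host of sisRNA:3, had 64 (49.3 to 81.7), Rga, a subunit of the CCR4-NOT complex and host of sisRNA:1, had 53 (39.7 to 69.3), and the kinase gene mbt, host of sisRNA:2, had 42 (30.3 to 56.8). The ratio of RpS27 to mbt was 1.64 (conditional exact 95% interval 1.10 to 2.47), while the intervals of its ratios to Csp, 1.08 (0.756 to 1.54), and to Rga, 1.30 (0.897 to 1.90), include 1. RpL35A, with over 9 times the reads of RpS27, and RpS15Aa have no annotated sisRNA gene. That is ordinary, holding for 135 of the 139 counted hosts matched to the annotation.

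Because an RNA that lies inside 1 intron cannot be longer than the longest intron of its gene, reads divided by that length give a lower limit for the reads per kilobase of such a sisRNA. On this scale RpL35A had 1067 reads per kilobase of longest intron, the highest of 139 counted hosts, ahead of wal with 815 and of CG11008, the entry with the most reads, with 659. RpS27 had 90.2 reads per kilobase and ranked 30, and RpS15Aa had 52.4 and ranked 55. The median of the 136 other hosts was 41.8. The ranks of the small-subunit hosts are higher here than by read count alone, and a host with very long introns can have a sisRNA far shorter than its longest intron, so hosts are compared on this scale only as a description. Across the 139 hosts Spearman's rho between longest intron and read count was 0.29, where all points share the pooled read column and the same annotation.

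**Figure D3:**
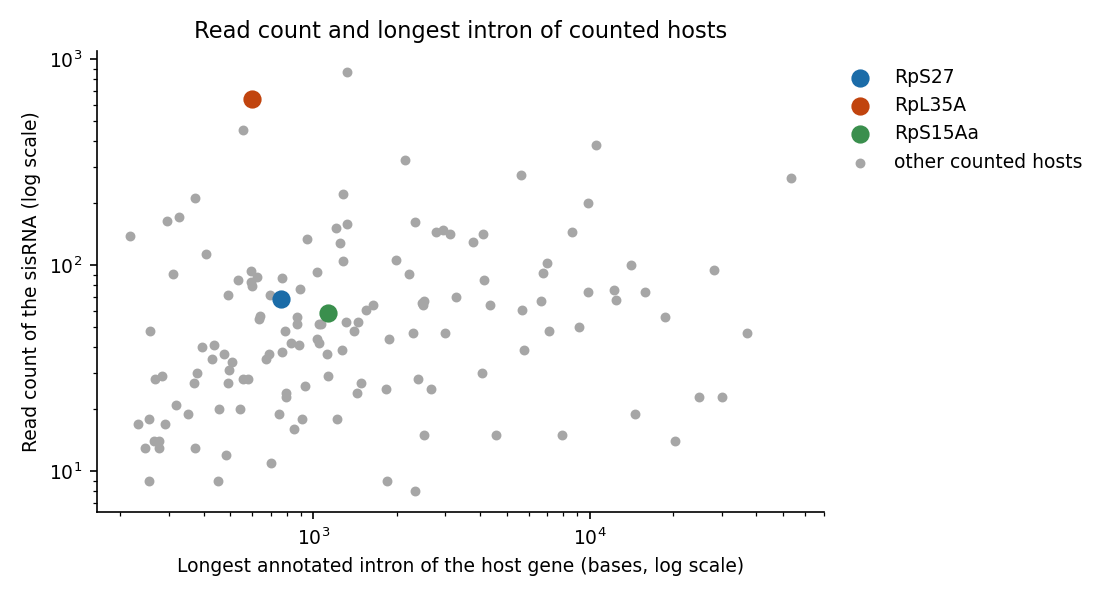
Read count of the sisRNA (log scale) against the longest annotated intron of the host in bases (log scale) for 139 counted hosts, with the 3 ribosomal protein hosts in colour. RpL35A stands at 638 reads with an intron of 598 bases, above hosts of like intron length, while RpS27 and RpS15Aa lie among them.

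Of the 89 symbols of cytosolic ribosomal proteins examined, 88 matched the annotation and 82 of these genes have an intron. The 3 hosts are 1 of 50 large-subunit and 2 of 38 small-subunit genes. They make up 3.66% of the 82 with an intron (exact 95% interval 0.761% to 10.3%), where 2.43% of intron-bearing protein-coding genes are listed as hosts. That background lies inside the interval, and 3 genes give no basis for calling ribosomal protein genes over-represented. None of 75 mitochondrial ribosomal protein genes, 58 genes of translation factors and 20 genes of ribosome biogenesis and RNA polymerase I was found in either list by symbol or synonym. Within these 4 groups the listed hosts are thus these 3 genes. The translation factors were taken as symbols starting with eIF or eEF and a few named genes, so other genes of translation were not searched.

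The introns of the 3 hosts are long for ribosomal protein genes. In the 79 unlisted genes with an intron the longest intron had a median of 289 bases, with quartiles of 226 and 477 and a range of 52 to 1665. Among all 82, RpS15Aa ranked 5, RpS27 ranked 9 and RpL35A ranked 13. Only 10 unlisted genes had a longest intron of at least the 598 bases of RpL35A.

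None of the 3 hosts has an annotated snoRNA gene inside an intron on its strand. Of the 79 unlisted ribosomal protein genes 29 have at least 1 (36.7%), 75 snoRNA genes in all, against 0.690% of all 11740 intron-bearing protein-coding genes and 1 of the 139 counted hosts (0.719%). Of the 10 unlisted genes with an intron of at least 598 bases, 8 hold snoRNA genes, among them RpS5a with 14 and RpS7 with 7. The exceptions are RpS27A, which encodes ubiquitin fused to a small-subunit protein, with a longest intron of 1324 bases, and RpL10, with 805. The 3 hosts and these genes are thus the only members of the 82 that combine an intron of at least 598 bases with no snoRNA gene in an intron. The length limit is that of RpL35A and was set after the values were seen, so this is a description of 13 genes that depends on where the limit stands. Just below it, from 500 bases up, are 8 more unlisted genes, and 3 of them hold no snoRNA gene: RpL23 with a longest intron of 586 bases, RpL27 with 508 and RpL36 with 503.

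**Figure D4:**
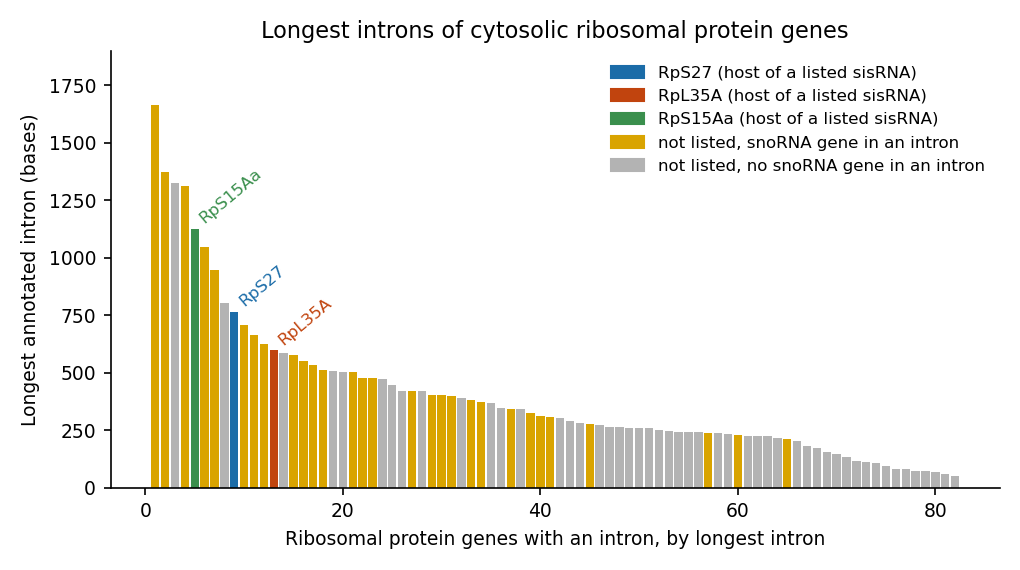
Longest annotated intron in bases of the 82 ribosomal protein genes with an intron, ordered from longest to shortest, with the 3 hosts in their own colours and unlisted genes split by whether a snoRNA gene lies in an intron. The hosts rank 5, 9 and 13, and 8 of the 10 unlisted genes above the bar of RpL35A hold snoRNA genes.

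RpS15Aa has a paralog, RpS15Ab, which is annotated without an intron and is in neither list. How reads that map to several places were treated is not stated by the labels or files.

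None of the 3 hosts bears a remark for a cis-natural antisense transcript, which marks 9.29% of counted entries, and none is overlapped by an annotated gene of the opposite strand, as 28.1% of the 139 counted hosts are. With so few genes these shares are a description. In each case the nearest protein-coding gene on the 5′ side points the other way, at 143 bases from RpS27 (Nup37, a nuclear pore gene), 676 from RpL35A (POLDIP2) and 612 from RpS15Aa (CG15747). That arrangement is ordinary, being found in 65.5% of the 139 counted hosts and 54.0% of the 11740 intron-bearing protein-coding genes. No annotated gene of the opposite strand covers an intron of these hosts.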

How the data were processed

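Per the labels' protocols, RNA of unfertilized eggs was prepared with Trizol and sequenced from standard Illumina libraries. Positions are in dm3, according to the submitters' processing notes. How reads were aligned, counted and assigned to a strand, and how sisRNAs were called, is not stated by the labels or files. The authors deposited raw read counts in 1 column that names no library, and these were used as 1 pooled value per sisRNA. The fractions were therefore not compared.

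The members and gene lists were chosen with earlier results of these data known. Named genes are the members, their neighbours in rank and position, the 3 most like entries, and listed genes of 5 lists. Other genes, such as the other hosts of annotated sisRNAs and ribosomal protein genes with long introns, were named after their values were seen. Exact Poisson, Clopper-Pearson and conditional binomial 95% intervals held the true value in at least 95% of draws simulated from the models they assume. Such draws check the computation and not whether sequenced reads follow those models. The intervals cover counting error only. Symbols were matched to Ensembl release 115 (BDGP6.54) and RefSeq synonyms. Of 295 hosts 288 matched on the listed arm, and of 140 counted hosts 139. Annotation coordinates gave only lengths, order and overlap. Alternatives changed the read minimum, the entries kept and the rows compared. Scripts ran in Python 3.11.15 with scipy 1.17.1 and numpy 2.4.6.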

Additional observations from a re-analysis of the deposited data

How the results depend on the processing

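The log2 ratio of RpL35A to the median of the other entries lay between 3.35 and 3.91 under the 8 alternatives, against 3.73 in the whole list. With rows of the same arm only, the share of reads was 26.6% for RpL35A, 2.87% for RpS27 and 2.20% for RpS15Aa, and with rows of the same hexamers only 42.3%, 3.21% and 2.59% for the same genes, because fewer entries make up the total. Without CG11008 the share of RpL35A was 6.19%. The percent of other entries below RpL35A, 99.3% in the whole list, was 100% without CG11008, on its arm and among its hexamer. For RpS27 it was 65.5% and moved to 75% on its arm. For RpS15Aa it was 58.3% and moved to 67.4% among entries with no hexamer and to 49.1% with a minimum of 20 reads. The log2 ratio of RpL35A to the median was 3.41 with a minimum of 20 reads, 3.91 on its arm and 3.35 among its hexamer. That of RpS15Aa was 0.75 among its hexamer class and -0.05 with a minimum of 20 reads, so its place above the median is not firm. Nor is that of RpS27, whose log2 ratio was 0.20 with a minimum of 20 reads and 0.30 among its hexamer class, where the counting intervals reach below 0. In the counted list 17.1% of entries had aauaaa alone and 31.4% had no hexamer, and on arms 3R and X 30.5% of the longer list had none. With all intronic bases in place of the longest intron, chosen after the data were seen, 87.0% of hosts lay below RpS27 and 73.9% below RpS15Aa, against 79.0% and 60.9%. The search for hexamers in annotated introns was not run, since no genome was used here. No paired analysis was possible because a group is a single library and the read column names none of them. Depth is unknown, and no value has a replicate.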
